A study of Mus musculus with 20 samples.

Results

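The 41 genes described here encode the enzymes and carriers of the urea cycle and of amino acid breakdown in the liver. They were taken from the gene count table by symbol, and all 41 were found among its 55421 genes. All 41 passed the filter on low counts, as did 22867 genes in total. Bulk RNA-seq of polyadenylated RNA was performed on 20 mouse livers, 5 in each of 4 groups. All animals were wildtype and labelled female, and all received an AAV8 virus carrying saCAS9, the Cas9 of Staphylococcus aureus, by retro-orbital injection. An age at injection of 6 months is given for hepatocyte ablation of HIRA in general and not separately for these groups. The Tbg promoter restricts this Cas9 to hepatocytes, while whole liver was sequenced. The HIRA groups carried a guide RNA against Hira (AAV8-Tbg-saCAS9/U6-sgRNA-HIRA), and the Rosa26 control groups carried a guide against the Rosa26 locus (AAV8-Tbg-saCAS9/U6-sgRNA-Rosa26), so Cas9 and virus were shared by all groups. Livers were taken 3 weeks or 6 months after injection, and time after injection and age cannot be told apart.

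Amino acid breakdown releases nitrogen as ammonia or moves it by transamination onto glutamate and aspartate, and the urea cycle of the hepatocyte converts it into urea for excretion. The remaining carbon skeletons feed glucose synthesis, ketone bodies or the citric acid cycle. Most of these genes are expressed at high level in hepatocytes and little elsewhere in the liver, and they respond to feeding, glucagon and glucocorticoids. HIRA is a chaperone that places the histone variant H3.3 into chromatin outside of DNA replication.

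Levels are given in CPM, the counts scaled to library size with TMM factors, and fold changes as log2 of HIRA over Rosa26 with the standard error of the edgeR fit. A gene is called changed at a Benjamini-Hochberg adjusted p under 0.05 of edgeR's quasi-likelihood test over all 22867 genes. Total counts ranged from 19916430 to 24079736 per library. Hira itself had 6.94 ± 1.01 CPM (SD, n = 5) in Rosa26 and 4.96 ± 0.849 CPM in HIRA livers at 3 weeks, and the arms did not overlap (log2 fold change -0.48, SE 0.14, adjusted p = 0.20). At 6 months Hira had 5.98 ± 0.905 and 5.58 ± 0.574 CPM (log2 fold change -0.10, SE 0.14, adjusted p = 0.79). At the later time the arms overlapped in Hira RNA. The paper reports loss of HIRA protein with this guide by western blot, and the RNA level does not measure that loss. The library labelled HIRA 6 months replicate 5 held 9 Xist counts and 2041 counts of Y-linked genes, against 6286 to 8436 Xist and at most 13 Y-linked counts in the other 19, which goes against its female label. The library HIRA 6 months replicate 1 was on average the lowest in the present genes and is described below. It was singled out by these same values, so results without it are not an independent check. Values at 6 months without one or both of these libraries are given beside many of the results. The fit without both was not planned beforehand. In whole liver, fewer hepatocytes and less RNA per hepatocyte cannot be told apart.

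These genes were among the most abundant of the liver, since 40 of the 41 lay in the highest decile of genes by mean CPM and together they took 1.90 to 3.57% of all counts in a library. On the length-corrected scale of the deposited FPKM, the mean over the Rosa26 livers at 3 weeks was highest for Ass1 (1588 FPKM), followed by Hpd (1435), Gnmt (1432) and Cdo1 (1288). It was lowest for Sdsl, at 8.45 FPKM. The label of the tissue as liver was checked on 7 hepatocyte markers, which summed to 86554 to 167010 CPM. Most of this sum was Alb, with group means of 83100 to 120500 CPM.

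The glycine cleavage enzyme gene Gldc fell in HIRA livers at 3 weeks, and the amidase gene Nit2 fell at 6 months. Other genes differed by as much or more without passing the test, among them Sdsl at 3 weeks (log2 fold change -0.69) and Bhmt (-0.68) and Gldc (-0.56) at 6 months. DESeq2 called 2 genes of the set lower at 3 weeks and 7 at 6 months, where it called 0.695% and 3.34% of all genes with an adjusted p lower. The change of the guide effect between the times was called for none of the 41, and for 0 of all 22867 genes tested. At 6 months 37 of the 41 had a lower fitted level in HIRA livers, and 36 without HIRA replicate 1. The median log2 fold change of the 41 was -0.29 at 6 months, -0.19 without that library, and -0.08 at 3 weeks. No gene of the set passed the study's further requirement of an absolute log2 fold change above 1 at either time. That double threshold was met by 0.114% of all genes at 3 weeks and by 0.332% at 6 months.

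The stretches upstream of Gldc, Cbs and Nit2 are shown because these were the 3 genes of the set in which all 5 HIRA livers lay below all 5 Rosa26 livers at one of the times, as 1.24% of all genes did at 3 weeks and 1.74% at 6 months. Each line gives the 250 bases before the RefSeq start (GRCm38.p6), read along the gene, with matches to the searched motifs in capitals.
Gldc (chr19:30175442-30175691, minus strand): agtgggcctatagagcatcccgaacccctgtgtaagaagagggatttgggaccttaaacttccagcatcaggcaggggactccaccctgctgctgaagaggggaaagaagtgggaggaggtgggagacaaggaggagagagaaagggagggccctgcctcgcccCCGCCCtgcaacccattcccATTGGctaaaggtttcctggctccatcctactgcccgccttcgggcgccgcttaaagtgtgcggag
Cbs (chr17:31637206-31637455, minus strand): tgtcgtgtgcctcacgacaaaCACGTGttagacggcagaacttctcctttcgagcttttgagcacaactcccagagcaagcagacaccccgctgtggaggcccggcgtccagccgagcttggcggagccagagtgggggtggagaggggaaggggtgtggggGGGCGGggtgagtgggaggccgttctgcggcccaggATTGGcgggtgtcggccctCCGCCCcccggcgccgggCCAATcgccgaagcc
Nit2 (chr16:57167333-57167582, minus strand): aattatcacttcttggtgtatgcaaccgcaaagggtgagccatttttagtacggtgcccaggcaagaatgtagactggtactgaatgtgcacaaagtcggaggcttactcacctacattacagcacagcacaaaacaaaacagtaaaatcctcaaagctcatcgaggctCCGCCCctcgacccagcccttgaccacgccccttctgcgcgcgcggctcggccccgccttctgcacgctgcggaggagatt
The motifs were searched on both strands, and none contains another: the CCAAT box (CCAAT), the GC box (GGGCGG), the E-box (CACGTG) and the TATA box (TATAAA). Gldc held a CCAAT box and a GC box, Nit2 a GC box, and Cbs an E-box, 2 CCAAT boxes and 2 GC boxes. Of the 41 genes, 30 had an entry in the promoter table. A CCAAT box was present in 16 of them (53.3%), against 37.5% of all 27025 genes with an entry, and a GC box in 12 (40.0%), against 35.4%. An E-box was found in 4 (13.3%), namely Ass1, Cbs, Slc25a13 and Slc25a15, against 6.86% of all, and a TATA box in 4 (13.3%), against 14.3%. These matches describe letters in a window and no bound factor was measured.

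**Figure D1:**
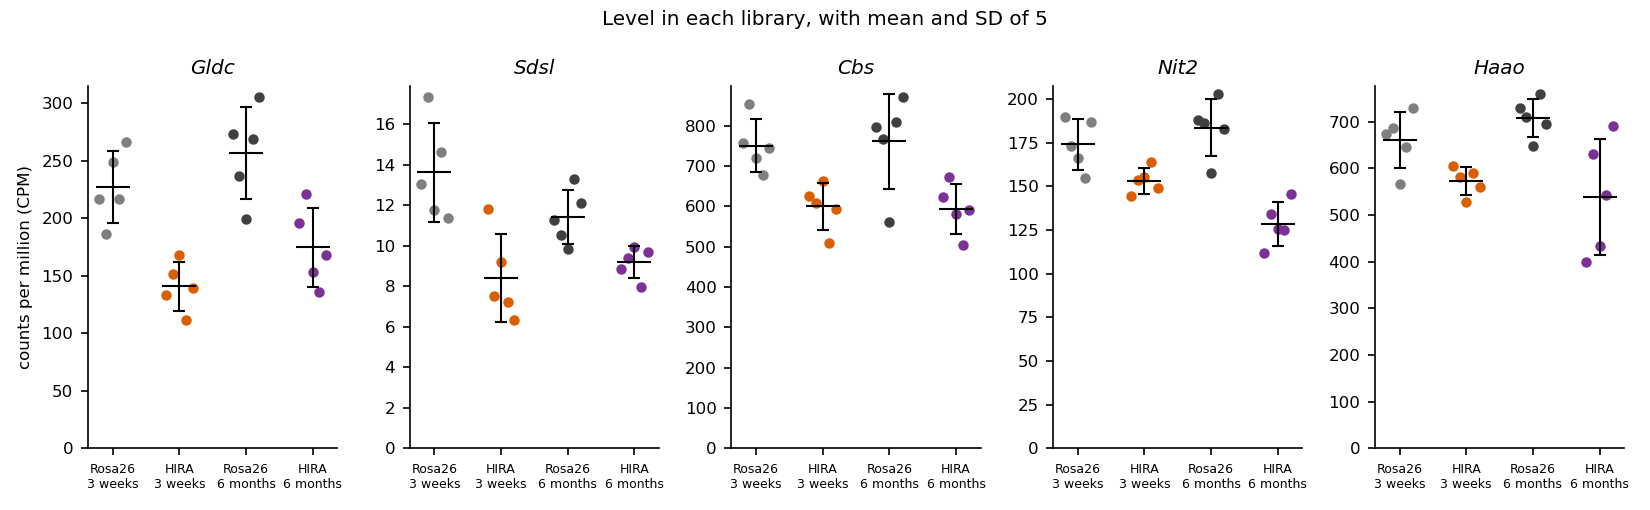
Level of Gldc, Sdsl, Cbs, Nit2 and Haao in each of the 20 libraries, in CPM on a linear axis from 0, with the mean and SD of the 5 livers of each group as bars. Gldc and Cbs are separated between the arms at 3 weeks, and Nit2 at 6 months, when Haao is spread widely in HIRA livers.

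The first question was which genes differed early, 3 weeks after injection of the guide. Gldc, which encodes the decarboxylating subunit of the mitochondrial glycine cleavage system (ENSMUSG00000024827.10, GRCm38 chromosome 19, 30098447 to 30175429, minus strand), was the called gene. Its level in replicates 1 to 5 of the Rosa26 group was 216.5, 186.7, 249.3, 216.8 and 266.5 CPM. In the HIRA group it was 133.4, 151.5, 167.7, 111.4 and 139.6 CPM. Every HIRA liver lay below every Rosa26 liver. Gldc fell with a log2 fold change of -0.69 (SE 0.14, adjusted p = 0.044). It was 1 gene of 41, where 0.0569% of all genes were called lower and 0.14% higher at this time. The call was narrow: without any one of the 5 Rosa26 libraries, or of HIRA replicates 1, 2, 4 and 5, the adjusted p was 0.075 to 0.15, and only without HIRA replicate 3 did the gene stay called. It was also not called without Rosa26 6 months replicate 1, 2 or 4, which enter the shared estimate of the spread. The fold change stayed between -0.76 and -0.62 in all of these. Fitted on only the libraries of 3 weeks, Gldc was called in edgeR (adjusted p = 0.016). It was not called in edgeR with replicate number in the model (adjusted p = 0.052). Nor was it called in limma on log2(FPKM + 1) or log2(FPKM + 0.1), with adjusted p of 0.059 and 0.060.

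Sdsl and Sds, which encode serine dehydratase-like protein and serine dehydratase, stood beside Gldc in the breakdown of serine and glycine. Sdsl was the least abundant gene of the set. It had 13.02, 17.32, 11.74, 14.61 and 11.35 CPM in the Rosa26 livers and 11.8, 7.496, 9.195, 7.224 and 6.343 CPM in the HIRA livers at 3 weeks. HIRA replicate 1 lay inside the control range, and the other 4 lay below it. Its log2 fold change was -0.69 (SE 0.15), and the adjusted p of 0.054 missed the threshold. It passed without HIRA replicate 1 (-0.85, adjusted p = 0.021), without Rosa26 6 months replicate 3 and without HIRA 6 months replicate 5 (adjusted p = 0.043), and in DESeq2 (adjusted p = 0.0023). For Sds the log2 fold change was -0.49 (SE 0.25, adjusted p = 0.60). Sds shares 360 exon bases with Plbd2 on the opposite strand, which had 56.5% as many counts. The library kit was directional, and whether counting used the strand is not given in the sources used here.

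Cbs, which encodes cystathionine beta-synthase, the enzyme that commits homocysteine to cysteine synthesis, was the other gene without overlap at 3 weeks. The 5 Rosa26 livers had 756.5, 854.5, 720.3, 679.1 and 745.6 CPM. The 5 HIRA livers had 626.7, 609.3, 662.6, 508.5 and 593.2 CPM. The arms were adjacent, with 662.6 CPM as the highest HIRA value and 679.1 CPM as the lowest control value. The log2 fold change was -0.32 (SE 0.11, adjusted p = 0.32), so Cbs was not called. Across all genes, 1.24% had all 5 HIRA below all 5 Rosa26 livers at this time, against 2 of these 41.

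In the urea cycle proper the early differences were small and of both signs. Cps1, the carbamoyl phosphate synthetase that admits ammonia to the cycle, had a log2 fold change of 0.20 (SE 0.17). Ass1 and Asl, which build and split argininosuccinate, had 0.19 (SE 0.21) and 0.07 (SE 0.15). Otc, which joins carbamoyl phosphate to ornithine, had -0.10 (SE 0.11). None of these 4 passed the test, with adjusted p from 0.84 to 0.96. The ornithine carrier Slc25a15 had -0.24 (SE 0.11, unadjusted p = 0.039), the aspartate and glutamate carrier Slc25a13 had 0.11 (SE 0.10), and Nags, which makes the activator of Cps1, had -0.03 (SE 0.11).

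The alanine aminotransferase genes Gpt and Gpt2, which move the amino group of alanine to glutamate, had the highest fold changes of the set at 3 weeks, at 0.31 (SE 0.14) and 0.31 (SE 0.18). Neither was called, with adjusted p of 0.54 and 0.68. In the kynurenine path of tryptophan, the later enzymes Kmo, Kynu and Haao had -0.28 (SE 0.13), -0.34 (SE 0.15) and -0.21 (SE 0.12). Tdo2, the enzyme of its first step, had 0.02 (SE 0.23). Gls2, the liver glutaminase, had 0.04 (SE 0.16) and Got1, the cytosolic aspartate aminotransferase, -0.15 (SE 0.28). All 4 tyrosine genes were below 0, from -0.30 for Tat, the first enzyme, to -0.05 for Fah, the last. The 3 genes of lysine and branched-chain breakdown, Aass, Bckdha and Bckdhb, were each at 0.04. In proline and histidine breakdown the 7 genes ranged from -0.22 for Amdhd1, the imidazolonepropionase, to 0.12 for Uroc1, the urocanase. Bhmt, the betaine-dependent homocysteine methyltransferase, had -0.61 with a wide error (SE 0.34, adjusted p = 0.66), with 1331 to 2352 CPM in the Rosa26 and 796.6 to 1426 CPM in the HIRA livers. The other 5 methionine and cysteine genes besides Cbs ranged from -0.19 for Cdo1 to 0.08 for Gnmt.

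Over the whole set at 3 weeks, 27 of 41 genes had a fitted level below the controls, against 50.92% of all genes tested, and 7 were lower at an unadjusted p under 0.05, which 4.5% of all genes were. Those 7 were Slc25a15, Nit2, Kmo, Kynu, Sdsl, Gldc and Cbs. Gpt alone was higher at that level. DESeq2 called 2 of the 41 lower, Sdsl and Gldc, where it called 0.695% of the 14391 genes for which it gave an adjusted p.

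**Figure D2:**
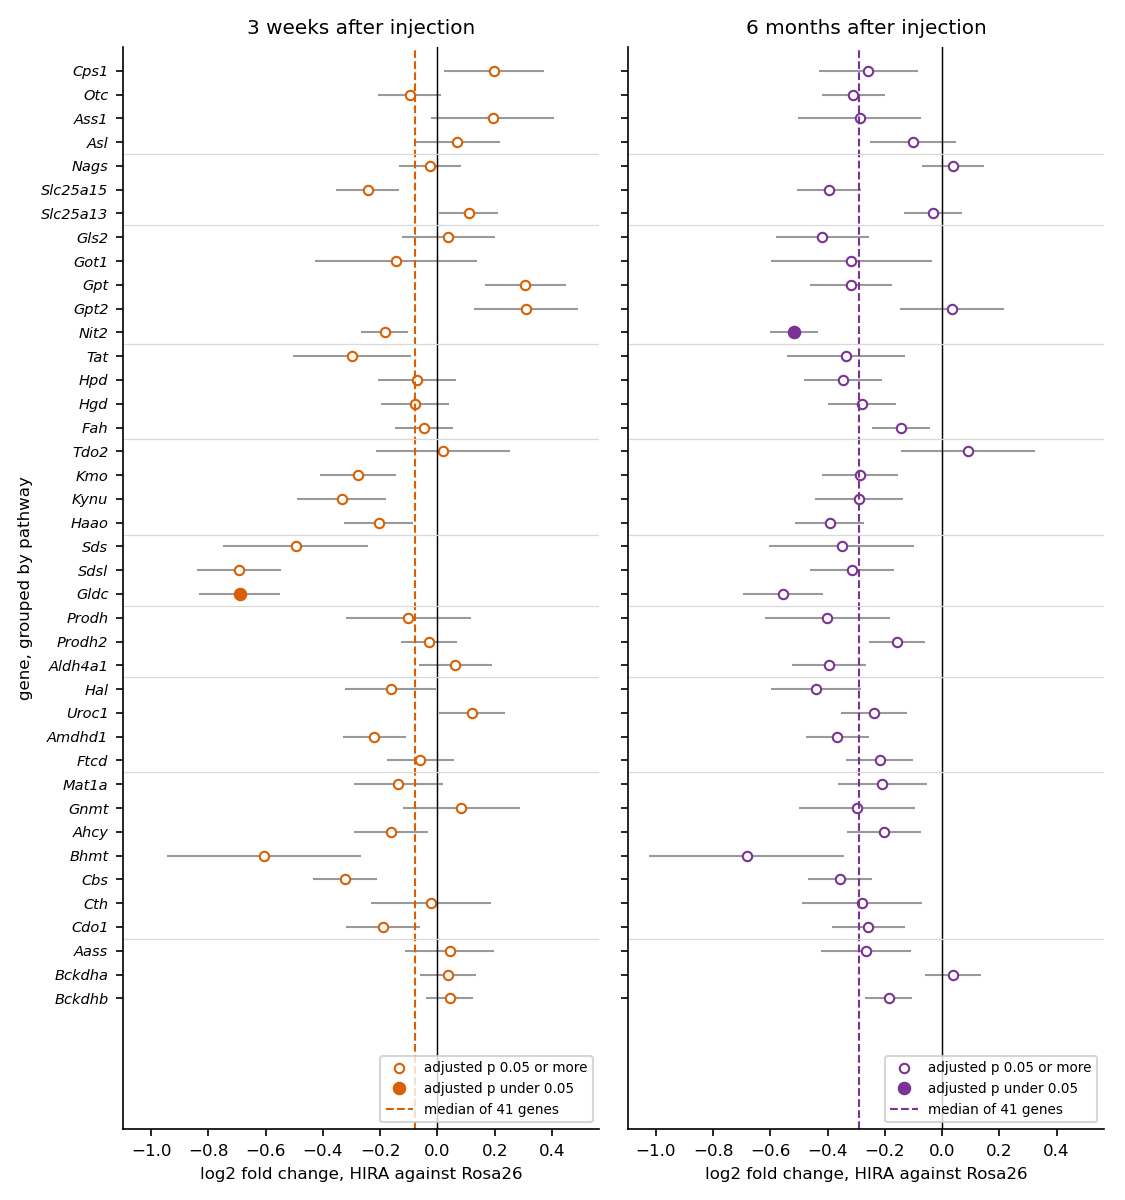
Log2 fold change of HIRA against Rosa26 for 40 of the 41 genes at 3 weeks (left) and 6 months (right), with the standard error of the edgeR fit as bars and the median of the 41 as a dashed line. Filled points passed an adjusted p of 0.05, Gldc at 3 weeks and Nit2 at 6 months, and at 6 months 36 of the 40 points lie left of 0.

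The same question was then asked 6 months after injection. Nit2, which encodes omega-amidase, an enzyme that clears the keto acids left by glutamine and asparagine transamination (ENSMUSG00000022751.9, chromosome 16, 57156665 to 57167341, minus strand), was the called gene. The Rosa26 livers had 187.9, 186.3, 157.8, 202.9 and 182.8 CPM. The HIRA livers had 111.8, 134.2, 125.4, 124.9 and 145.5 CPM. No values overlapped: the highest HIRA liver had 145.5 CPM and the lowest control 157.8 CPM. Nit2 fell by 0.52 on the log2 scale (SE 0.08, adjusted p = 0.011). It was 1 gene of 41, where 0.612% of all genes were called lower and 0.695% higher. Nit2 was called without each of the 20 libraries in turn, with -0.56 without HIRA replicate 5, -0.48 without replicate 1 and -0.52 without both. At 3 weeks it had 154.8 to 189.7 CPM in Rosa26 and 144.2 to 164 CPM in HIRA livers, with overlap (log2 fold change -0.18, SE 0.08, adjusted p = 0.53). Nit2 shares 41 exon bases with Tomm70a on the other strand, which had 58.81% as many counts and a log2 fold change of -0.14 (SE 0.07, adjusted p = 0.33) at 6 months. Fitted on only the 10 libraries of 6 months, Nit2 was not called (adjusted p = 0.095).

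Gldc at 6 months had 273.5, 237.1, 199.8, 269 and 305.3 CPM in Rosa26 and 196, 221.4, 153, 135.6 and 168 CPM in HIRA livers. Only HIRA replicate 2 lay inside the control range. The log2 fold change of -0.56 (SE 0.14) had an adjusted p of 0.053, so it missed the threshold, while DESeq2 gave 0.0053. Without HIRA replicates 1 and 5 it was -0.60 (adjusted p = 0.097). It passed without Rosa26 replicate 3 (-0.64, adjusted p = 0.033) or HIRA replicate 2 (-0.66, adjusted p = 0.027), and without Rosa26 3 weeks replicate 2 or HIRA 3 weeks replicate 3 or 4. Its level was also above that of 3 weeks in both arms, with means of 227 ± 31.2 and 257 ± 40.1 CPM (SD, n = 5) in the Rosa26 groups and 141 ± 20.96 and 175 ± 34.2 CPM in the HIRA groups.

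Haao, which encodes the dioxygenase that opens the ring of hydroxyanthranilate towards quinolinate and NAD, had 728.8, 709.5, 648.3, 758.6 and 695.2 CPM in the Rosa26 livers at 6 months. The HIRA livers had 399.3, 630.2, 433, 542.2 and 691.4 CPM. Replicate 5 reached the control range and the other 4 lay below it. The log2 fold change was -0.39 (SE 0.12, adjusted p = 0.11). Without replicate 5, the library with sex-linked counts against its label, it was -0.50 with an adjusted p of 0.029, and 0.815% of the genes then tested were called lower. Without replicate 1 alone, which had the lowest value, it was -0.31 (adjusted p = 0.23). Without replicates 1 and 5 together it was -0.40 (adjusted p = 0.094).

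Cbs at 6 months had 798.4, 768.1, 562, 810.5 and 871.6 CPM in the Rosa26 livers and 623.5, 673.8, 580.1, 505.1 and 590.9 CPM in the HIRA livers. The arms overlapped through the control replicate 3. The log2 fold change was -0.36 (SE 0.11, adjusted p = 0.11), and it was -0.45 with an adjusted p of 0.033 without that control. Sdsl had 9.853 to 13.3 CPM in Rosa26 and 7.971 to 9.954 CPM in HIRA livers at 6 months (log2 fold change -0.31, SE 0.15, adjusted p = 0.31). Over all genes, 1.74% had all 5 HIRA below all 5 Rosa26 livers at 6 months, and Nit2 was the 1 gene of the set.

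Cps1, Otc, Ass1 and Asl each had a lower fitted level in HIRA livers at 6 months, although none of these 4 was called, with adjusted p from 0.16 to 0.81. The log2 fold changes were -0.26 (SE 0.17) for Cps1, -0.31 (SE 0.11) for Otc, -0.29 (SE 0.21) for Ass1 and -0.10 (SE 0.15) for Asl. In the single livers, Cps1 had 2381, 2081, 1960, 1955 and 2754 CPM in the Rosa26 livers and 1160, 2510, 1835, 2167 and 1639 CPM in the HIRA livers, so the arms overlapped widely and the lowest value was that of HIRA replicate 1. Without that library Cps1 had -0.13, Otc -0.23, Ass1 -0.13 and Asl -0.00. Without replicates 1 and 5 they had -0.04, -0.28, -0.03 and 0.04 in that order. The ornithine carrier Slc25a15 had -0.40 (SE 0.11, adjusted p = 0.080) and was called only when HIRA replicate 3 was left out among the single libraries. Without replicates 1 and 5 it had -0.23. With all libraries Nags and Slc25a13 lay near 0, at 0.04 and -0.03.

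The amino group and glutamine genes besides Nit2 were Gls2 at -0.42 (SE 0.16), Got1 at -0.32 (SE 0.28), Gpt at -0.32 (SE 0.14) and Gpt2 at 0.03 (SE 0.18). Without HIRA replicates 1 and 5 these were -0.25, 0.07, -0.15 and 0.24. Got1 had 110.3 and 128.3 CPM in those libraries and 248.6 to 366.5 CPM in the other 3 HIRA livers, so the sign of its difference rested on them. The 4 tyrosine genes lay between -0.35 for Hpd, the hydroxyphenylpyruvate dioxygenase, and -0.14 for Fah. Without HIRA replicate 1 Tat had -0.19, Hpd -0.25, Hgd -0.18 and Fah -0.09, and without replicates 1 and 5 the first 3 had -0.23 and Fah -0.10. Kmo and Kynu had -0.29 (SE 0.13) and -0.29 (SE 0.15), and without both libraries -0.36 and -0.39. Kynu was highest of its group in HIRA replicate 5, at 206.4 CPM, and had -0.48 without it and -0.19 without replicate 1. Tdo2 was the highest gene of the set at 0.09 (SE 0.23). Its level in HIRA replicate 5 was 1128 CPM, the highest of the 20 libraries, and without that library its log2 fold change was -0.17.

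Of the proline genes, Aldh4a1, which completes the conversion of proline to glutamate, had -0.40 (SE 0.13, unadjusted p = 0.0059), Prodh -0.40 (SE 0.22) and Prodh2 -0.16 (SE 0.10). Without HIRA replicates 1 and 5 they had -0.22, -0.23 and -0.12. The 4 histidine genes had -0.44 for Hal, the histidine ammonia-lyase, -0.24 for Uroc1, -0.37 for Amdhd1 and -0.22 for Ftcd, and without both libraries -0.46, -0.14, -0.37 and -0.29. In the methionine cycle, Bhmt had the lowest fold change of the set at -0.68 with the widest error (SE 0.34). Its 5 HIRA livers ran from 243.8 to 2342 CPM, and it was -0.42 without replicate 1 and -0.26 without replicates 1 and 5. Mat1a, Gnmt and Ahcy, which make, use and recycle S-adenosylmethionine, lay between -0.30 and -0.20, and between -0.13 and -0.04 without both. Cth and Cdo1, which form and oxidise cysteine, had -0.28 (SE 0.21) and -0.26 (SE 0.13), and -0.11 and -0.30 without both. Aass had -0.27 (SE 0.16), Bckdhb -0.19 (SE 0.08) and Bckdha 0.04 (SE 0.10), and without both -0.08, -0.10 and 0.01.

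Over the whole set, 18 of 41 genes were lower at an unadjusted p under 0.05 at 6 months and none was higher, where 6.85% of all genes were lower at that level. The share of genes with a lower fitted level was 90.24%, against 45.72% of all genes and 61.7% of the 2287 genes in the highest decile by CPM, whose median log2 fold change was -0.05. DESeq2 called 7 of the 41 lower (Slc25a15, Nit2, Haao, Gldc, Aldh4a1, Amdhd1 and Cbs), where it called 3.34% of genes. The median of the set was -0.19 without HIRA replicate 1, -0.31 without replicate 5 and -0.21 without both, and the genes lower at an unadjusted p under 0.05 were then 9, 17 and 12. Those with a lower fitted level were then 36, 40 and 36.

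**Figure D3:**
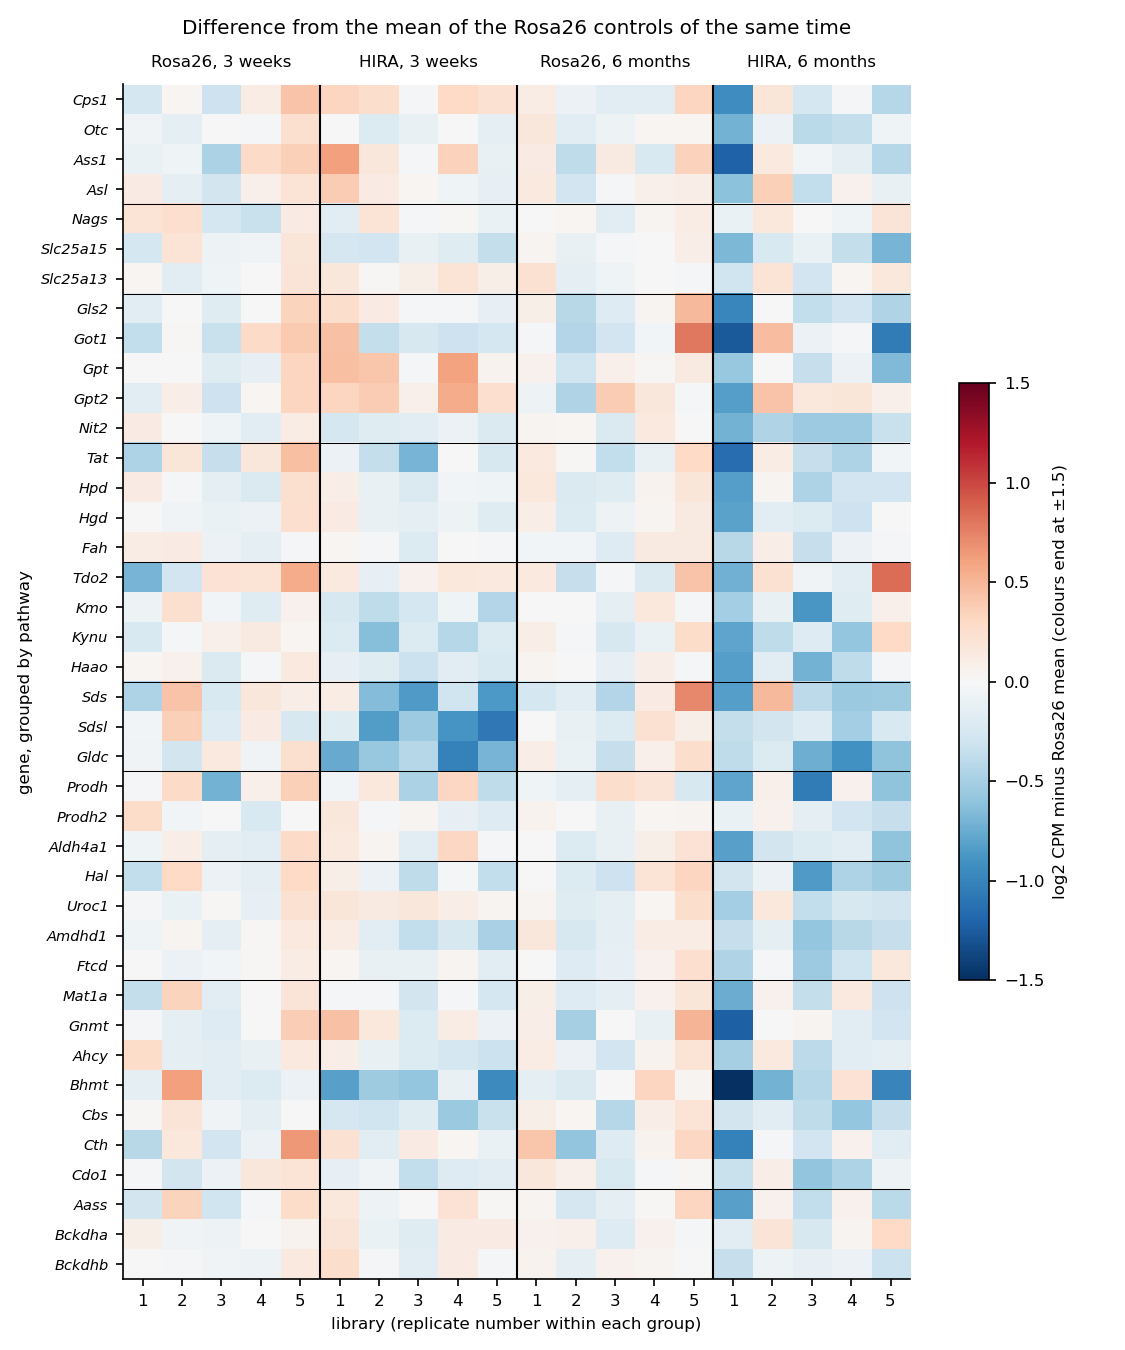
Difference of log2 CPM from the mean of the 5 Rosa26 livers of the same time, for 40 of the 41 genes (lines, grouped by pathway) in the 20 libraries (columns), with red above and blue below that mean. HIRA 6 months replicate 1 is below the control mean in all 40, while replicate 2 of that group is below it in 19.

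The mean level of the set differed between livers of a group, most widely in the HIRA livers at 6 months. The mean difference of the 41 genes from the Rosa26 livers of the same time was -0.30 ± 0.26 log2 units in the HIRA livers at 6 months and -0.11 ± 0.11 at 3 weeks (SD, n = 5). It was -0.71 in HIRA 6 months replicate 1, 0.01 in replicate 2, -0.36 in replicate 3, -0.22 in replicate 4 and -0.24 in replicate 5. Replicate 1 held the lowest value of all 20 libraries in 23 of the 41 genes, and the genes took 1.90% of its counts, against 2.41 to 3.10% in the other 4 livers of its group. The Rosa26 livers ran from -0.17 to 0.19 at 6 months and from -0.16 to 0.21 at 3 weeks. Replicate 2 thus lay within the control range, and the other 4 HIRA livers of 6 months lay below it.

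**Figure D4:**
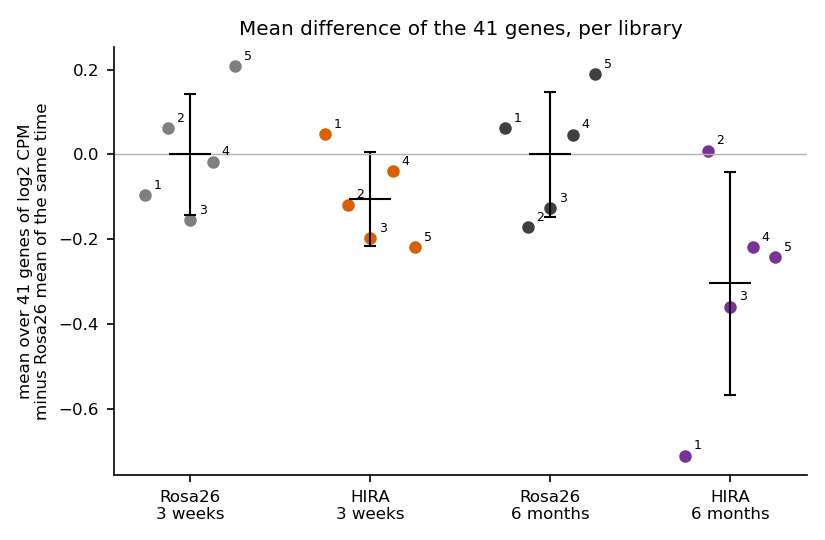
Mean over the 41 genes of the difference of log2 CPM from the Rosa26 mean of the same time, per library (points, with replicate numbers), with mean and SD of each group. At 6 months 4 of 5 HIRA livers lie below all 5 controls, and replicate 1 lies at -0.71.

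Between 3 weeks and 6 months none of the 41 genes was called in either arm, where 0.324% of all genes changed in Rosa26 and 0.0656% in HIRA livers. In the Rosa26 livers 35 of 41 genes had a higher fitted level at 6 months, with a median log2 change of 0.11, against 0.00 over all genes. The median was 0.17 without Rosa26 3 weeks replicate 5 and 0.08 without Rosa26 6 months replicate 5, the highest and lowest with 1 library left out. The smallest p-values belonged to Uroc1 (0.35, SE 0.11), Gpt2 (0.55, SE 0.18), Aldh4a1 (0.39, SE 0.13) and Gpt (0.42, SE 0.14), with edgeR adjusted p from 0.18 to 0.20. DESeq2 called Uroc1 (adjusted p = 0.048). In the HIRA livers the median change was -0.05 and 14 of 41 genes were higher. Without HIRA 6 months replicate 1 it was 0.03, and 16 genes were lower instead of 27. Cps1 had -0.45 (SE 0.17) and Nit2 -0.26 (SE 0.08), with adjusted p of 0.44 and 0.33.

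The change of the guide effect with time, which is the 6-month minus the 3-week difference, was not called for any of the 41 genes. The percentage over all genes was 0 as well, with 674 genes lower and 840 higher at an unadjusted p under 0.05 in edgeR, and DESeq2 also made 0 calls. Gpt had the most negative value. Its mean level was 292 ± 41.5 CPM in Rosa26 and 362 ± 67.1 CPM in HIRA livers at 3 weeks, and 391 ± 43.5 and 313 ± 62.2 CPM at 6 months (SD, n = 5). The guide effect turned from 0.31 to -0.32, a difference of -0.63 (SE 0.20, unadjusted p = 0.0054, adjusted p = 0.66). Without HIRA 6 months replicates 1 and 5 that difference was -0.45. In order of p-value Nit2 came next at -0.33 (SE 0.12, unadjusted p = 0.011), then Aldh4a1 at -0.46 (SE 0.18) and Uroc1 at -0.36 (SE 0.16). Ass1 at -0.48 (SE 0.30) and Cps1 at -0.46 (SE 0.25) were as low with wider errors. Without both libraries Nit2 had -0.33, Aldh4a1 -0.28, Uroc1 -0.26, Ass1 -0.22 and Cps1 -0.23. The median over the 41 genes was -0.16, and -0.10 without HIRA 6 months replicate 1.

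**Figure D5:**
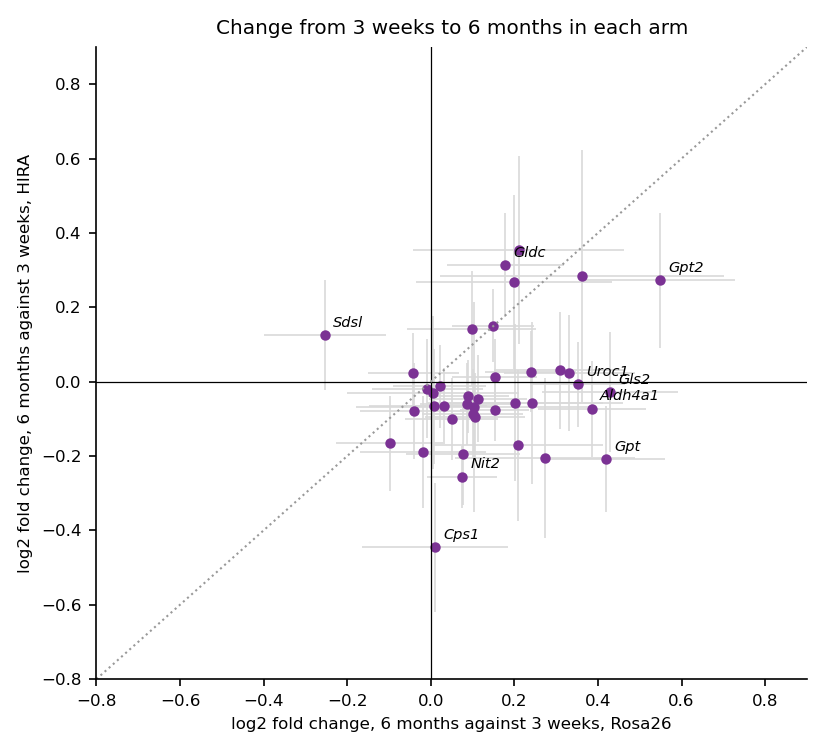
Log2 change from 3 weeks to 6 months in Rosa26 (horizontal) and HIRA livers (vertical) for 40 of the 41 genes, with standard errors of the edgeR fit as grey bars and a dotted line of equal change. Most points lie right of 0, with Gpt2 farthest at 0.55, and Gpt, Nit2 and Cps1 lie below 0 on the vertical axis.

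A wider list of 66 genes of the same pathways was measured beside the set. At 6 months 7 of the 66 fell and 0 rose, where 0.612% of all genes were called lower and 0.695% higher. These were Agxt (log2 fold change -0.73, adjusted p = 0.024), the alanine-glyoxylate aminotransferase, Gcat (-0.66, 0.029), which acts in threonine breakdown, and Shmt1 (-0.44, 0.026), which interconverts serine and glycine. Sqor (-0.48, 0.033) oxidises sulfide from cysteine. Mccc1 (-0.44, 0.020) and Mccc2 (-0.49, 0.026) encode both subunits of the leucine enzyme methylcrotonyl-CoA carboxylase, and Mmut (-0.53, 0.014) encodes methylmalonyl-CoA mutase. All 7 had arms without overlap, where 1.74% of all genes had all 5 HIRA below all 5 Rosa26 livers. Without HIRA replicate 1, Mccc1, Mmut and Gcat were still called, while Agxt, Shmt1, Sqor and Mccc2 had adjusted p of 0.052 to 0.069, and without replicate 5 Sqor alone of the 7 missed it at 0.054. In all, 3 of the 66 were called lower without replicate 1 (0.269% of all genes), 10 without replicate 5 (0.815%) and 1, Mmut, without both (0.321%). The median of the 66 was -0.22 at 6 months, -0.18 without both, and -0.04 at 3 weeks, when none was called. Among 16 amino acid carriers, Slc25a22, a mitochondrial glutamate carrier, rose at 6 months (0.71, adjusted p = 0.014; 0.76 and 0.030 without both libraries) and none fell. The share of all genes called higher was 0.695% and lower 0.612%. Of 15 regulators of these genes, among them Hnf4a (0.17, SE 0.11 at 6 months), Cebpa and Nr3c1, none was called at either time.

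Of 14 clock genes and clock outputs, 5 rose at 3 weeks, namely Dbp (4.55, adjusted p = 0.025), Nr1d2 (1.19, 0.030), Ciart (3.62, 0.038), Tef (1.47, 0.041) and Per3 (2.56, 0.046), where 0.14% of all genes were called higher, and none was called at 6 months. Npas2 (-1.72), Nfil3 (-1.12) and Arntl (-1.04) had a lower fitted level in HIRA livers at 3 weeks without passing the test, with adjusted p from 0.12 to 0.40. Dbp had 1.52 to 3.54 CPM in the Rosa26 and 9.05 to 103.9 CPM in the HIRA livers at 3 weeks. At 6 months it was 3.76 CPM in HIRA replicate 1 and 20.53 to 115.1 CPM in the other HIRA livers, against 18.12 to 95.13 CPM in Rosa26. The Rosa26 livers of 3 weeks were thus the group apart in Dbp. The same held for the group means of Tef (49.2 CPM, against 125.7 to 136.0 in the other 3 groups), Nr1d2 (24.5 against 49.1 to 56.1) and Per3 (3.30 against 19.5 to 21.3). These control livers enter both the comparison at 3 weeks and the change over time in Rosa26. Of 10 fasting and glucocorticoid genes none was called, and their sum was 3061.6 to 5628.7 CPM in Rosa26 and 1265.4 to 5240.3 CPM in HIRA livers at 3 weeks. The mean sum was highest in these Rosa26 livers, at 4200 CPM, with overlap between the arms. It was 2828 CPM in HIRA livers at 3 weeks, and 2482 CPM in Rosa26 and 2839 CPM in HIRA livers at 6 months. None of the marker genes of hepatocytes, of either liver zone or of Kupffer, endothelial, stellate, biliary, lymphoid or erythroid cells was called at either time. At 6 months all 6 endothelial and all 6 stellate markers had a positive fold change (medians 0.33 and 0.50, and 0.36 and 0.06 without HIRA replicate 3, when 4 of the 6 stellate markers were above 0), with sums of 120.04 to 201.53 against 147.29 to 231.75 CPM and of 181.47 to 339.38 against 206.96 to 771.34 CPM in Rosa26 and HIRA. The highest stellate sum was that of HIRA replicate 3, and the next was 370.33 CPM. All 6 lymphoid markers were also above 0 (median 0.40). Without HIRA replicate 3 their median was 0.15, with 4 of 6 above 0. The 5 periportal markers outside the set had a median of -0.48 (-0.19 without Rosa26 replicate 3), with 2 above 0. The 8 pericentral markers had -0.20, with 3 above 0. Kupffer markers had -0.11, and 0.70 without Rosa26 replicate 3. Biliary markers had 0.18 and erythroid markers 0.01. The 7 hepatocyte markers had a median of 0.18 (0.07 without HIRA replicate 5), with sums of 86554 to 125250 and 104010 to 147080 CPM. These sums were mostly Alb, and 5 of the 7 markers were above 0. Fgb (mean 5574 CPM in Rosa26 and 4367 in HIRA) and Apoc3 (1809 and 1542) were lower in HIRA livers. The part of clock phase, feeding state or cell make-up in the differences of the 41 genes was not tested.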

How the data were processed

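The authors trimmed reads with Trim Galore, mapped them with STAR to mm10, which is GRCm38, and deposited unnormalized read counts for each gene. The study's methods name HOMER for counting, and the submitters' processing notes name HTSeq and Cufflinks. The FPKM values deposited by the authors were used for levels between genes and, as log2(FPKM + 1) and log2(FPKM + 0.1) with limma, as an alternative. Sex is female in the labels and in a figure legend of the study, and male in its main text. Groups and replicate numbers came from the sample titles. No libraries of a group agreed within sampling noise.

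Genes with at least 10 counts in total were fitted on all 20 libraries in edgeR 4.0.16 (glmQLFit and glmQLFTest, TMM, 1 mean per group, two-sided, R 4.3.3). DESeq2 1.42.0 and limma 3.58.1 served as alternatives. Positions came from GENCODE M21, and motifs and figures used Python 3.11.15, pandas 2.3.3 and matplotlib 3.10.9. Genes described by their values per library were those called in any comparison, with or without HIRA 6 months replicate 5, or without overlap between the arms. Cps1 at 6 months was added after its values were seen. Of the wider lists, called genes were named, at most 8 per comparison. The 41 genes, the lists and this rule were chosen with earlier results of these data known. 1 of the 41 genes enters the summaries and is not reported here singly. Mut, Pycr3 and Tf had no entry under these symbols.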

Additional observations from a re-analysis of the deposited data

Results flagged for a closer look

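Of 168 checks for a library far from the other 4 of its group, 9 passed Dixon's limit, and chance alone passes about 1 in 20. The mean difference of the 41 genes in HIRA 6 months replicate 1 was among the checks and did not exceed that limit. All values are log2 CPM. In the Rosa26 livers at 3 weeks, Hgd was 9.43 in replicate 5 (the others 9.08 to 9.17) and Bhmt 11.2 in replicate 2 (10.38 to 10.5). In the HIRA livers at 3 weeks, Cps1 was 11.06 (11.31 to 11.41) and Fah 9.27 (9.45 to 9.51) in replicate 3, and Got1 was 8.42 in replicate 1 (7.62 to 7.75). In the Rosa26 livers at 6 months, Gpt was 8.31 in replicate 2 (8.62 to 8.74) and Cbs 9.14 in replicate 3 (9.59 to 9.77). In the HIRA livers at 6 months, Gpt2 was 7.70 (8.60 to 8.96) and Gnmt 9.59 (10.53 to 10.86) in replicate 1, the library that held the lowest level of the 20 in 23 of the 41 genes.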

How the results depend on the processing

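The count of genes of the set called at 3 weeks, 1 as reported, was 0 with the added fold threshold, 2 with DESeq2, 2 with no filter on low counts, 2 where genes averaged 1 CPM or more and 0 with either FPKM scale, and 0 to 1 when each library of the comparison was left out in turn. At 6 months, also 1 as reported, it was 0 with the fold threshold, 2 with DESeq2 size factors in edgeR, 7 with the DESeq2 test, 3 where genes averaged 1 CPM or more, 0 with only the libraries of the comparison and 1 to 3 with each library left out. It was 3 without Rosa26 6 months replicate 3, and 2 without HIRA 6 months replicate 2, 3 or 5. The change over time in Rosa26 livers had 1 call with DESeq2 and 0 otherwise. Replicate numbers did not pair the libraries: same-numbered libraries of different groups had correlations of their deviations from -0.309 to 0.335, and 5 of 20 correlated best with their own number. With the replicate block 0 genes were called at 3 weeks (Gldc, adjusted p = 0.052) and 1 at 6 months (Nit2). The median log2 fold change of the set kept its sign at 3 weeks (-0.12 to -0.03) and 6 months (-0.37 to -0.19) in every alternative. The sign of the change over time in HIRA livers turned in some, within the spread between replicates (-0.12 to 0.05). Depth limits Sdsl most, with 133 to 347 counts per library.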
